A study of Mus musculus with 6 samples.

Results

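The genes described here encode the xenobiotic phase I and phase II enzymes of the mouse lung. They are the protein-coding genes whose symbols place them in the cytochrome P450 families Cyp2, Cyp3 and Cyp4, the flavin monooxygenases Fmo, the carboxylesterases Ces1, the glutathione S-transferases Gst, the UDP-glucuronosyltransferases Ugt1a and Ugt2, or the sulfotransferases Sult1. A gene was kept when its counts summed over all 6 libraries reached 60. Of the 54532 genes in the count table, 139 had such a symbol and 58 of these reached the minimum. The families themselves were chosen with earlier results of these data known. Shares of these genes set beside those of all genes are therefore descriptions and not tests of an independent set. Within the families the 58 genes were chosen by their summed level and not by the difference between genotypes. The minimum was set on the sum over both genotypes. Just inside it lay Gstm3 with 79 counts in all (13, 25 and 17 in WT, 11, 6 and 7 in the libraries labelled ISM1-/-), and just outside it lay Ugt1a1 with 59 and Cyp2t4 with 52.

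Phase I enzymes oxidise, reduce or hydrolyse foreign and endogenous lipophilic molecules, and phase II enzymes attach glutathione, glucuronic acid or sulfate so that the products can be exported. In the mouse lung much of the P450 activity sits in the club cells of the bronchiolar epithelium, and Cyp2f2, which converts naphthalene to a reactive epoxide, is the best known of these enzymes. Flavin monooxygenases oxidise nitrogen and sulfur in soft nucleophiles, and the Ces1 carboxylesterases cleave esters and lipids.

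Perfused whole lungs of 3 wild-type (WT) mice and 3 mice labelled ISM1-/- were sequenced, with 1 poly-A-selected library per mouse. All mice were untreated, 2 months old and on the C57BL/6J background. The ISM1-/- mice, bred to lack the secreted protein isthmin-1, came from an in-house colony while the controls were bought, so genotype and source cannot be told apart. Whole lung also means that fewer cells of a type and less RNA per cell cannot be told apart.

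Each library held between 37606133 and 42345042 counts. Ism1 itself was still counted in every library, with 3098, 3215 and 2975 counts in WT 1 to 3 and 2784, 2508 and 2953 in the libraries labelled ISM1-/- 1 to 3. Scaled to library size, every library labelled ISM1-/- lay below every WT library. The log2 fold change was -0.19 ± 0.07 (SE, n = 3 per genotype, adjusted p = 0.217, edgeR). Which exons the deletion removes is not given in the sources used here, so these counts neither check nor refute the labels. The groups are called by their labels throughout. A pair of libraries stood apart. The chi-square per degree of freedom between counts was 5.45 for WT 2 against WT 3 but 15.8 and 16.8 for WT 1 against them, and it was 7.84 for ISM1-/- 1 against ISM1-/- 2 but 21.2 and 17.6 for ISM1-/- 3 against them. Between genotypes it ran from 15.5 (WT 2 against ISM1-/- 2) to 30.2 (WT 1 against ISM1-/- 3), which overlaps the values within a genotype. The markers of the lung label were present: 12 alveolar type 2 genes, led by Sftpc, summed to between 26187 and 27624 CPM (counts scaled to library size) in each library.

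The sequence just before the transcription start is shown for 5 genes: Cyp2f2 and Cyp2s1, the phase I genes that were lower with the smallest adjusted p-values, Cyp2b10, which lies beside Cyp2s1 and was not called, Gstm2, the most abundant of the glutathione S-transferases that were lower, and Ces1e, which holds a motif recognised by Dbp and Tef, regulators that were higher. RefSeq gave a promoter for 46 of the 58 genes. Each run below is the 250 bases before the RefSeq start, 5′ to 3′ on the gene's own strand, on build GRCm38.p6. Cyp2f2 is read from chr7:27119705-27119954 on the plus strand, Cyp2s1 from chr7:25816526-25816775 on the minus strand, Cyp2b10 from chr7:25897408-25897657 on the plus strand, Gstm2 from chr3:107986421-107986670 on the minus strand and Ces1e from chr8:93229620-93229869 on the minus strand. Capitals mark a match to 1 of 4 motifs searched on both strands: the antioxidant response element core TGACNNNGC, the xenobiotic response element core GCGTG, the CCAAT box CCAAT and the D-box TTATGTAA.
Cyp2f2: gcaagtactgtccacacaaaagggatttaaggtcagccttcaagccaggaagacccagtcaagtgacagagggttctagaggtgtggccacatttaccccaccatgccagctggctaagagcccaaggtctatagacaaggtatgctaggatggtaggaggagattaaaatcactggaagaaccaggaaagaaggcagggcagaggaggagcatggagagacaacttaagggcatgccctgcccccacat
Cyp2s1: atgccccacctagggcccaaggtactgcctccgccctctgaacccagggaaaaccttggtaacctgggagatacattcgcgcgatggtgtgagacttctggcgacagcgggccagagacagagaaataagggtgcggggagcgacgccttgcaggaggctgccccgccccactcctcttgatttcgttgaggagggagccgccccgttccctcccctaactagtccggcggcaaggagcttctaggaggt
Cyp2b10: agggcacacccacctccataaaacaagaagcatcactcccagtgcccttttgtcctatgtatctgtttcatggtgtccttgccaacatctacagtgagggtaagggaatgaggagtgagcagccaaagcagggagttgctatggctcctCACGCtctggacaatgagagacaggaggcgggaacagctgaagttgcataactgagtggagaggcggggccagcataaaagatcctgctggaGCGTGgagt
Gstm2: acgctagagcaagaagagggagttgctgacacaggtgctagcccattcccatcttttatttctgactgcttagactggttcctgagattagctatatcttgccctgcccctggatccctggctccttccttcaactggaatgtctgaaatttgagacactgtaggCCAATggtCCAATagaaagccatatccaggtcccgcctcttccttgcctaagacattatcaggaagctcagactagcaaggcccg
Ces1e: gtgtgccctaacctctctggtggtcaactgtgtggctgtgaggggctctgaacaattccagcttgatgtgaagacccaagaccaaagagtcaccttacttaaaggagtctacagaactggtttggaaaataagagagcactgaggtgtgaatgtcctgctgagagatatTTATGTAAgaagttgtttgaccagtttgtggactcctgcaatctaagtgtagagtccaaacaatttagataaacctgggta

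The Cyp2f2 and Cyp2s1 windows held none of the 4 motifs. For Cyp2f2, Cyp2s1, Cyp2b10 and Gstm2 the RefSeq start differs from the start in the deposited table, and for Ces1e it is the same. The Cyp2s1 window lies wholly inside the deposited gene (chr7:25802475-25816913, minus strand), so the bases before its deposited start were not searched. The Cyp2f2, Cyp2b10 and Gstm2 windows run partly past the deposited start. Cyp2b10 held the xenobiotic response element core 101 to 97 bases before the start on the opposite strand and again at 9 to 5 bases, Gstm2 held the CCAAT box at 85 to 81 and 77 to 73 bases, and Ces1e held the D-box at 81 to 74 bases. Across all 27025 genes with a RefSeq promoter, 11.5% held the antioxidant core, 30.9% the xenobiotic core, 37.5% the CCAAT box and 0.977% the D-box. Among the 46 enzyme genes these were 4 (8.7%), 13 (28.3%), 27 (58.7%) and 3 (6.52%). The D-box genes were Ces1b, Ces1e and Ces1g. Of the 7 genes lower in the libraries labelled ISM1-/-, all with a promoter, 4 held a CCAAT box (Cyp4f15, Gstm2, Gstt3 and Gstz1) and 0 held any of the other motifs. The motifs were chosen after the expression values were seen, and a match of letters is a description and not a binding site.

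The level of these genes ranged widely when scaled by gene length. On the deposited FPKM scale, in which fragments are divided by gene length and library size so that genes can be compared, Cyp2f2 led with a mean of 1941 over the 6 libraries. By count it ranked 13 to 19 among all genes in the WT libraries and 26 in each library labelled ISM1-/-. It alone held 33.8%, 36.1% and 36.8% of the counts of the 58 genes in WT 1 to 3, and 30.3%, 31.0% and 28.4% in ISM1-/- 1 to 3. A mean of at least 100 FPKM was reached by 9 genes and of at least 1 FPKM by 50. After Cyp2f2 came Ces1d, Fmo2, Cyp4b1, Gstm1 and Fmo1, each between 303.0 and 651.5 FPKM in every library.

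Many genes of these families were near silent. Of 49 matching Cyp2 genes 12 reached the minimum and 20 had no count in any library, and of 9 Cyp3 genes, the main P450s of liver and gut, 1 reached it (Cyp3a13). None of the 10 Ugt2 genes did. By contrast all 5 flavin monooxygenases and 21 of 23 glutathione S-transferases were kept. Hepatocyte markers were near the floor, with 4 of 10 tested and a sum between 2.71 and 4.25 CPM in every library.

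**Figure D1:**
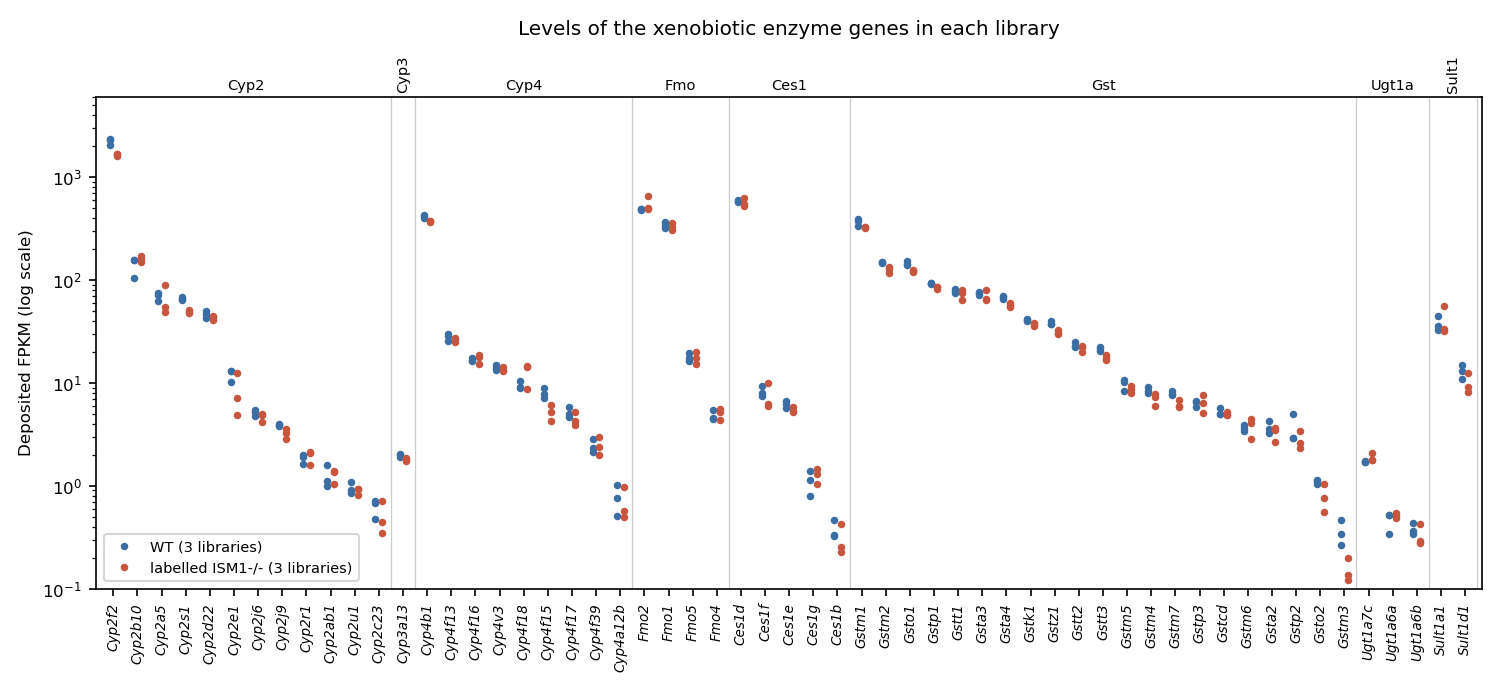
Deposited FPKM (log axis) of 57 of the 58 enzyme genes, ordered by family and by level, with 1 point per library in blue for WT (n = 3) and red for the libraries labelled ISM1-/- (n = 3). Cyp2f2 stands above every other gene with between 1598 and 2352 FPKM, and the genotypes lie close together for nearly all genes.

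The comparison of WT with the libraries labelled ISM1-/- asks what loss of isthmin-1 does to the resting lung. In these libraries 7 enzyme genes fell and 0 rose: the club cell P450 Cyp2f2, the epithelial P450 Cyp2s1, the fatty acid and eicosanoid hydroxylase Cyp4f15, and the glutathione S-transferases Gstm2, Gsto1, Gstz1 and Gstt3. The falls were small, to between 65.4% and 85.5% of the WT mean. These 7 are 12.1% of the 58 genes at an adjusted p under 0.1 in the quasi-likelihood test of edgeR, with p-values adjusted after Benjamini and Hochberg over all 18689 genes tested. The same call in the lower direction was made for 3.34% of all genes tested, in either direction for 4.72%, and in the lower direction for 3.57% of the 10381 genes at or above the enzymes' median of 11.6 CPM. The count of 7 rested on the libraries used, since it ran from 1 without WT 2 to 14 without ISM1-/- 3. The calls over all genes moved the same way, with 0.618% of all genes called lower without WT 2 and 4.84% without ISM1-/- 3.

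With a 2-fold minimum 0 enzyme genes were called, against 0.567% of all genes. For the 0 that rose, 1.38% of all genes were called higher. At an unadjusted p under 0.05 edgeR gave 17 genes, 16 (27.6%) lower and 1 (1.72%) higher, against 9.30% and 6.48% of all genes. DESeq2 called 8 of 57 lower (4.75% of all its genes), 0 higher: the same 7 and Gsta4, a transferase of lipid aldehydes. In 45 of 58 genes (77.6%) the log2 fold change was below 0, as for 48.8% of all genes, and the median over the 58 was -0.14 beside 0.0043 over all genes. Of the 58, 23 lay within 10% of the WT mean and 2 differed by at least 1.5-fold, Cyp4f15 and the sparse Gstm3.

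**Figure D2:**
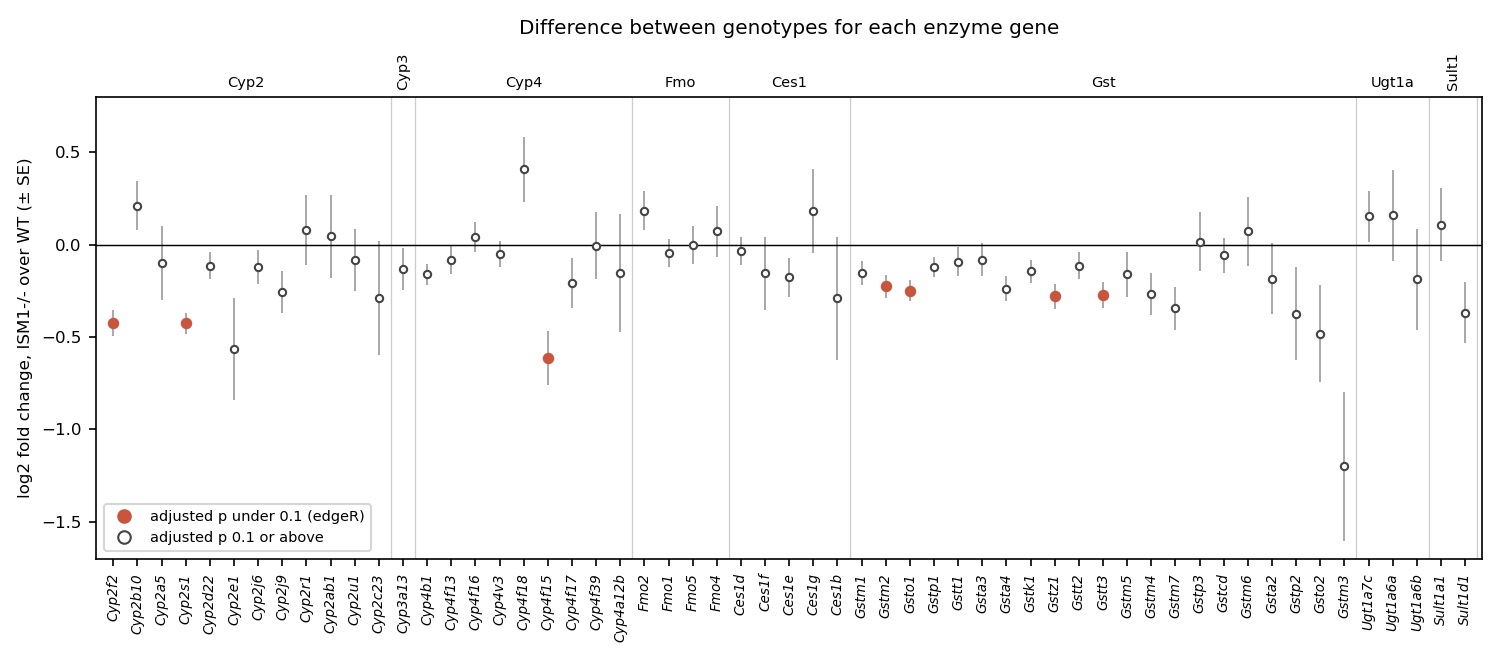
The log2 fold change of 57 of the 58 enzyme genes, libraries labelled ISM1-/- over WT, with its SE (edgeR, n = 3 per genotype), by family and in order of level. Filled points have an adjusted p under 0.1, and all 7 lie below 0, between -0.62 and -0.23.

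Cyp2f2 (ENSMUSG00000052974, GRCm38 chr7:27119909-27133660, plus strand) had 2170, 2464 and 2510 CPM in WT 1 to 3 and 1703, 1799 and 1824 in ISM1-/- 1 to 3. Every WT library was above every library labelled ISM1-/-. The mean fell from 2381 ± 184.2 to 1775 ± 64.1 CPM (SD, n = 3), to 74.6% of WT (log2 fold change -0.42 ± 0.07 SE, adjusted p = 0.0214, edgeR). The call held in 5 of 6 fits that left out 1 library and was lost without WT 2, where the adjusted p was 0.111. An antisense gene, Gm15883, shares 13.5% of the exon bases of Cyp2f2, and its own log2 fold change was 0.02 (adjusted p = 0.975).

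Cyp2s1 (ENSMUSG00000040703, chr7:25802475-25816913, minus strand), a P450 of airway and other barrier epithelia, had 147.2, 157.0 and 151.0 CPM in WT and 116.5, 111.8 and 110.4 in the libraries labelled ISM1-/-. The gap between the groups was wider than either spread. Its log2 fold change was -0.43 ± 0.06 (SE, adjusted p = 0.0108, edgeR), and it was the only one of the 7 called in 6 of 6 fits that left out 1 library, with an adjusted p of at most 0.0686. Its ratio to Cyp2f2 was alike in both groups: the log2 ratio averaged -3.97 ± 0.09 in WT and -3.98 ± 0.09 (SD, n = 3) in the libraries labelled ISM1-/-.

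Cyp4f15 (ENSMUSG00000073424, chr17:32685627-32703352, plus strand), of the P450 subfamily that hydroxylates long-chain fatty acids and leukotrienes, was sparse. It had 354, 486 and 392 counts in WT and 237, 256 and 316 in the libraries labelled ISM1-/-. The groups did not overlap, though ISM1-/- 3 came near WT 1 with 8.10 against 9.39 CPM. Its log2 fold change of -0.62 ± 0.15 (SE, adjusted p = 0.0636, edgeR) was the largest of the 7, and it was called in 2 of 6 fits that left out 1 library.

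Glutathione S-transferases were the largest of the families. Of 21 genes 4 were called lower, beside 2 of 12 Cyp2 genes and 3.34% of all genes tested. In 19 of the 21 there was a log2 fold change below 0, against 48.8% of all genes. Of the 21, 11 were lower without overlap, against 12.3% of all genes, and the family median was -0.18. Their summed level was 1081, 1091 and 1046 CPM in WT and 926.0, 954.7 and 976.7 CPM in the libraries labelled ISM1-/-. All 3 WT sums lay above all 3 others.

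Gsto1 (ENSMUSG00000025068, chr19:47854970-47864790, plus strand), an omega-class enzyme that reduces dehydroascorbate and methylated arsenic, had 119.2, 126.3 and 116.9 CPM in WT and 98.8, 103.5 and 103.0 in the libraries labelled ISM1-/-. The groups did not overlap (log2 fold change -0.25 ± 0.06 SE, adjusted p = 0.0535, edgeR). Gsto1 lies inside Cfap43 on the other strand, shares 0 exon bases with it, and Cfap43 had a log2 fold change of -0.09 (adjusted p = 0.547). Its neighbour Gsto2 had between 0.551 and 1.13 FPKM and a log2 fold change of -0.48 ± 0.26 (adjusted p = 0.426), also without overlap.

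Gstz1 (ENSMUSG00000021033, chr12:87147165-87164723, plus strand), the maleylacetoacetate isomerase of tyrosine breakdown, had 58.6, 62.9 and 58.7 CPM in WT and 47.6, 48.1 and 52.7 in the libraries labelled ISM1-/-. ISM1-/- 3 was the nearest to WT, but the groups stayed apart (log2 fold change -0.28 ± 0.07 SE, adjusted p = 0.0617, edgeR). Gstz1 shares 9.14% of its exon bases with Pomt2 on the other strand, whose log2 fold change was 0.02.

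Gstm2 (ENSMUSG00000040562, chr3:107981702-107986453, minus strand), a mu-class enzyme, had 122.6, 123.5 and 123.4 CPM in WT, a tight group, and 97.2, 110.4 and 108.3 in the libraries labelled ISM1-/-. Its adjusted p of 0.0993 (edgeR) lay just under the threshold with a log2 fold change of -0.23 ± 0.06 (SE). Gstt3 (ENSMUSG00000001665, chr10:75774115-75781414, minus strand), a theta-class enzyme, had 23.1, 22.4 and 24.3 CPM in WT and 19.1, 20.2 and 18.4 in the libraries labelled ISM1-/- (log2 fold change -0.27 ± 0.07 SE, adjusted p = 0.0851, edgeR). Of the 6 fits that left out 1 library, Gstm2 and Gstt3 were called in 1, that without ISM1-/- 3, and Gsto1 and Gstz1 in 2.

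**Figure D3:**
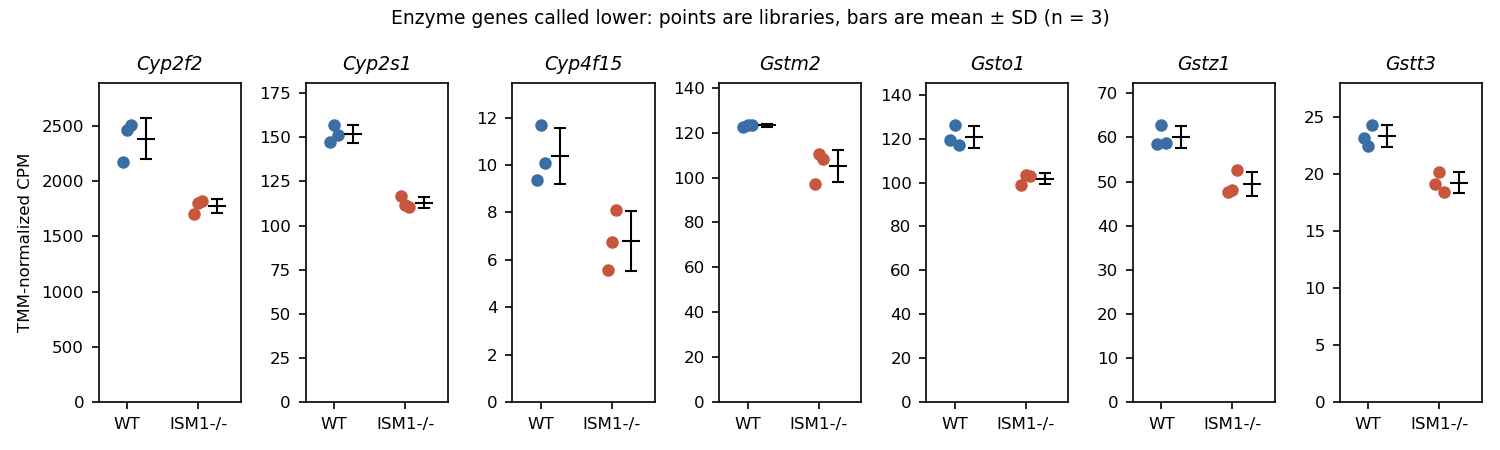
CPM, scaled by the trimmed mean of M values (TMM), of the 7 enzyme genes called lower, each on its own axis from 0, with 1 point per library and the mean ± SD (n = 3) beside the points. In each panel the 3 WT points lie above the 3 points of the libraries labelled ISM1-/-, with the widest relative spread in Cyp4f15.

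The other transferases gave smaller differences or noisier ones. Gstm1, the most abundant of the family, had 388.2, 371.0 and 334.9 FPKM in WT and 320.5, 330.0 and 329.0 in the libraries labelled ISM1-/- (log2 fold change -0.15 ± 0.07 SE, adjusted p = 0.295, edgeR). Gstm3 had the most negative value of all 58 genes, -1.20 ± 0.40 (adjusted p = 0.171), on 11, 6 and 7 counts in the libraries labelled ISM1-/-. Gstp1 and Gstp2, of the pi class, could not be fully told apart, since 52.8% and 63.5% of their 100-base windows recur in another gene. Gstp1, Gstp2 and Gstp3 had log2 fold changes of -0.12, -0.37 and 0.02. Of the mu class, Gstm4, Gstm5 and Gstm7 were below 0 (-0.27, -0.16 and -0.35) and Gstm6 was at 0.07, and of the theta class Gstt1 and Gstt2 were at -0.09 and -0.11. The mitochondrial and peroxisomal Gstk1 was at -0.14, without overlap, Gstcd at -0.06 and the sparse Gsta2 at -0.18, and none of these passed the test. The alpha-class Gsta3 and Gsta4 were at -0.08 and -0.24 (adjusted p = 0.730 and 0.106).

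Across the families, genes whose groups did not overlap were more often lower than higher: 17 of 58 (29.3%) lower and 2 (3.45%) higher, against 12.3% and 9.33% of all genes tested (21.6% in either direction). The 2 higher were Fmo2 and Ugt1a7c. Of the 17, 11 were glutathione S-transferases, 3 were Cyp2 genes, 2 were Cyp4 genes and 1 was Cyp3a13, at -0.13 ± 0.11 (SE, adjusted p = 0.640, edgeR).

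Neighbouring genes of a cluster differed in their values. Along chr7, Cyp2s1, Cyp2b10, Cyp2a5 and Cyp2f2 lie within 1331 kb, with called genes at both ends. Cyp2b10, the phenobarbital-inducible P450 that follows Cyp2f2 in level among the Cyp2 genes, had 148.5, 221.1 and 217.9 CPM in WT and 223.5, 211.1 and 245.0 in the libraries labelled ISM1-/-. WT 1 was low and the rest overlapped, so its log2 fold change of 0.21 ± 0.13 (SE, adjusted p = 0.501, edgeR) fell to 0.05 without WT 1 (adjusted p = 0.839). Set against Cyp2f2 in the same library, Cyp2b10 rose relative to it: the log2 ratio was -3.87, -3.48 and -3.53 in WT and -2.93, -3.09 and -2.90 in the libraries labelled ISM1-/-, a difference of 0.65. This ratio was picked after the values were seen and is given with no test.

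Cyp2a5, the mouse coumarin hydroxylase, sits between them with 71.7, 61.9 and 75.1 FPKM in WT and 54.7, 48.3 and 90.3 in ISM1-/- 1 to 3. ISM1-/- 3 was the highest of all 6 libraries and the other two were the lowest, and the log2 fold change was -0.10 ± 0.20 (SE, adjusted p = 0.871, edgeR).

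In the Gstm cluster on chr3, 7 genes lie within 149.1 kb and 6 of them were below 0, with Gstm2 the 1 called. In the Cyp4f cluster on chr17, Cyp4f15 at -0.62 lies between Cyp4f16 at 0.04 (adjusted p = 0.872) and Cyp4f13 at -0.08 (adjusted p = 0.686), both of the same subfamily. None of the Fmo genes shown on chr1 and none of the 5 Ces1 genes within 280.6 kb on chr8 was called by edgeR or DESeq2. At an unadjusted p under 0.05, edgeR gave 0 of the 5 Ces1 genes.

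**Figure D4:**
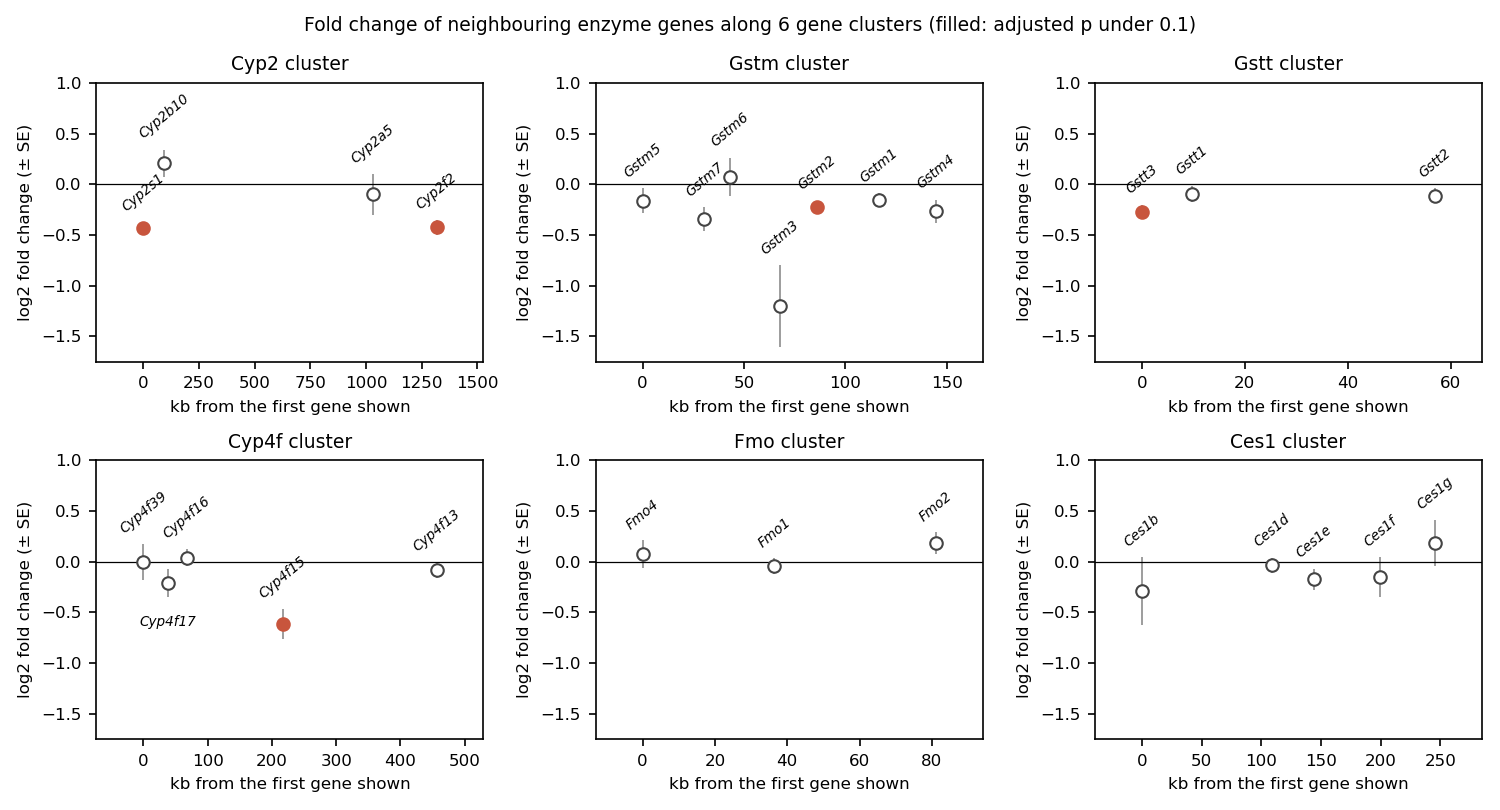
The log2 fold change (± SE, edgeR) of enzyme genes against their distance in kb from the first gene shown, in 6 gene clusters, libraries labelled ISM1-/- over WT. Filled points have an adjusted p under 0.1. In the Cyp2 cluster Cyp2s1 stands at -0.43 and its neighbour Cyp2b10 at 0.21, and in the Gstm cluster the called Gstm2 at -0.23 lies between Gstm3 at -1.20 and Gstm1 at -0.15.

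Among the remaining abundant phase I genes differences were small. Cyp4b1, which bioactivates the furan ipomeanol in the lung, had 401.9, 426.9 and 416.1 FPKM in WT and 362.2, 372.8 and 372.1 in the libraries labelled ISM1-/-. These did not overlap, yet the log2 fold change of -0.16 ± 0.06 (SE) did not pass (adjusted p = 0.179, edgeR). Ces1d, a carboxylesterase that hydrolyses triglycerides and drug esters, had 569.7, 584.1 and 596.3 FPKM against 520.2, 551.2 and 624.7, with ISM1-/- 3 above all WT libraries.

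Fmo2, the main flavin monooxygenase of the lung, had 483.5, 485.8 and 485.4 FPKM in WT and 500.6, 488.1 and 651.5 in ISM1-/- 1 to 3. All 3 exceeded WT, but only ISM1-/- 3 did so by much, and the log2 fold change went from 0.18 ± 0.11 (SE, adjusted p = 0.452, edgeR) to 0.03 without that library (adjusted p = 0.803). Fmo1 was at -0.04 ± 0.08 (adjusted p = 0.852). Ces1f and Ces1e were at -0.15 and -0.18 (adjusted p = 0.778 and 0.470).

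The remaining phase I genes showed no call. The vitamin D hydroxylase Cyp2r1, the fatty acid hydroxylase Cyp2u1 and Cyp2d22, Cyp2j6, Cyp2j9, Cyp2ab1 and Cyp2c23 had log2 fold changes between -0.29 (Cyp2c23) and 0.08 (Cyp2r1), with an adjusted p of at least 0.314 (edgeR). Cyp4v3, a fatty acid hydroxylase of the retina and other tissues, Cyp4f17, Cyp4f39 and Cyp4a12b lay between -0.21 and -0.005, with an adjusted p of at least 0.515. Of the Cyp4a12b windows of 100 bases, 36.2% recur in Cyp4a12a, which had 0 counts. Fmo5 and Fmo4 were at -0.002 and 0.07.

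Glucuronidation genes were few and low. Ugt1a7c had 1.70, 1.73 and 1.70 FPKM in WT and 2.10, 1.79 and 1.79 in the libraries labelled ISM1-/- (log2 fold change 0.15 ± 0.14 SE, adjusted p = 0.655, edgeR). The Ugt1a genes share their last exons, and 68.8% of the 100-base windows of Ugt1a7c, 35.1% of Ugt1a6a and 71.5% of Ugt1a6b recur in another gene. Their separate values of 0.15, 0.16 and -0.19 are therefore uncertain.

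ISM1-/- 3 differed from the other two libraries of its label in a subset of the enzymes. It was the highest of the 3 in 34 of 58 genes (58.6%), against 40.4% of all genes tested. The largest excess was in Cyp2e1, the ethanol-inducible P450, with 259, 337 and 619 counts in ISM1-/- 1 to 3 beside 485, 675 and 633 in WT. ISM1-/- 3 lay within the WT range and the other two lay below it. Its CPM of Cyp2e1 was 2.12 times the mean of the other two, and that of Cyp2a5 was 1.79 times, of the phenol sulfotransferase Sult1a1 1.71 times and of the catecholamine sulfotransferase Sult1d1 1.49 times. The genes named here outside the families' leading members were chosen after their values were seen.

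Without ISM1-/- 3, 14 enzyme genes were called, 13 lower and 1 higher, against 4.84% of all genes called lower in that fit. All 7 kept their call. The added lower genes included Cyp2e1 (-1.02, adjusted p = 0.0183, edgeR), Sult1d1 (-0.58, adjusted p = 0.0423), Cyp2a5 (-0.43, adjusted p = 0.0370), Gsta4 (-0.29, adjusted p = 0.0276) and Gsta3 (-0.20, adjusted p = 0.0740). The added higher gene was Cyp4f18 (0.61, adjusted p = 0.0148), which hydroxylates leukotriene B4 in neutrophils. With all libraries Cyp2e1 was at -0.56 ± 0.28 (SE, adjusted p = 0.364) and Sult1d1 at -0.37 ± 0.17 (adjusted p = 0.319). Leaving out WT 1 alone gave 5 calls, all lower, beside 2.31% of all genes called lower. Leaving out both WT 1 and ISM1-/- 3 gave 17, 16 lower and 1 higher, beside 7.23% of all genes called lower.

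Sult1a1 changed direction with that library. It had 32.9, 35.7 and 44.3 FPKM in WT and 32.0, 33.6 and 55.3 in ISM1-/- 1 to 3, a log2 fold change of 0.11 ± 0.20 (SE, adjusted p = 0.856, edgeR) that became -0.20 without ISM1-/- 3 (adjusted p = 0.412).

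**Figure D5:**
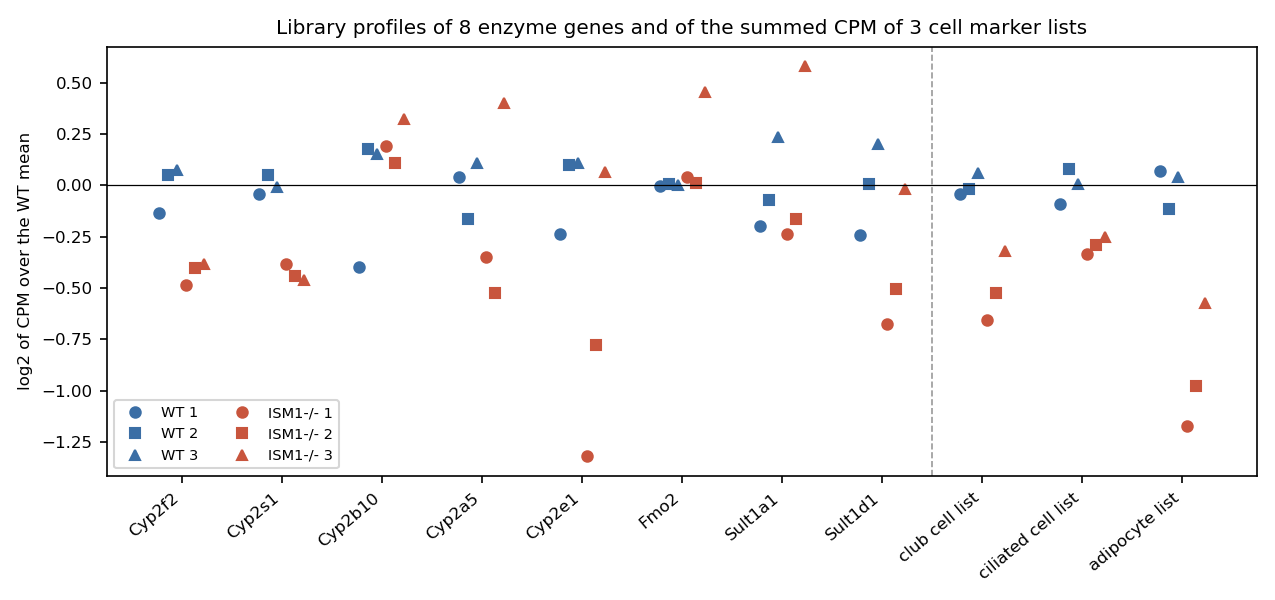
The log2 of CPM over the WT mean in each of the 6 libraries, for 8 enzyme genes and, right of the dashed line, for the summed CPM of 3 lists of cell markers. Marker shape gives the library number. ISM1-/- 3 (red triangles) lies with the other red points for Cyp2f2 and Cyp2s1 and far above them for Cyp2a5, Cyp2e1, Sult1a1 and Sult1d1.

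Summed over all 58 genes the level was 6428, 6832 and 6816 CPM in WT and 5627, 5804 and 6433 CPM in ISM1-/- 1 to 3. ISM1-/- 3 lay at the level of WT 1, so the groups overlapped. Cyp2f2 made up most of the difference: without it the sums were 4258, 4368 and 4306 CPM in WT and 3925, 4005 and 4609 CPM in the libraries labelled ISM1-/-, which overlapped. The Cyp2 sum was 2657, 3019 and 3066 CPM against 2196, 2268 and 2383, without overlap. Most of it was Cyp2f2, with 2170, 2464 and 2510 CPM against 1703, 1799 and 1824. Of the 12 Cyp2 genes 3 were lower without overlap, so this sum does not describe the family as a whole. The Cyp4 sum was 645.5, 676.9 and 666.6 CPM against 591.3, 605.0 and 611.7, also without overlap. The Fmo, Ces1 and Sult1 sums overlapped, with ISM1-/- 3 the highest library in each.

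Family medians of the log2 fold change were -0.12 for Cyp2 (12 genes), -0.08 for Cyp4 (9), -0.002 for Fmo (5) and -0.15 for Ces1 (5). They were -0.18 for Gst (21), -0.13 for Sult1 (2) and 0.15 for Ugt1a (3), beside 0.0043 for all genes. A median weighs sparse and abundant genes alike: for Ces1 the log2 of the genotype ratio of the summed CPM was -0.039.

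Markers of several cell types moved with these values. The counts of markers called stand beside 3.34% of all genes tested called lower and 1.38% called higher by edgeR. Of 12 club cell markers 5 were called lower (Scgb1a1, Scgb3a2, Bpifa1, Lypd2 and Hp) and 12 were below 0, and their sum was 23033 to 24658 CPM in WT and 15016 to 18980 in the libraries labelled ISM1-/-. Scgb1a1, the main club cell secretory protein, had 767235, 850902 and 847199 counts in WT and 550349, 547860 and 648606 in ISM1-/- 1 to 3 (log2 fold change -0.51 ± 0.09 SE, adjusted p = 0.0270, edgeR). The ratio of Cyp2f2 to Scgb1a1 overlapped between the groups, with a log2 mean of -3.14 ± 0.09 in WT and -3.04 ± 0.13 (SD, n = 3) in the libraries labelled ISM1-/-. Cyp2b10 relative to Scgb1a1 was higher by 0.75, without overlap. Scgb1a1 itself was called lower, and without WT 1 the log2 fold change of Cyp2b10 alone was 0.05. Like the ratio of Cyp2b10 to Cyp2f2, this one is given with no test.

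Of 12 ciliated cell markers 8 were called lower, with a sum of 898.6 to 1011 CPM in WT and 758.1 to 804.3 in the libraries labelled ISM1-/-. Of 12 adipocyte markers 10 were called lower, with sums of 548.2, 481.4 and 536.1 CPM in WT and 231.8, 265.4 and 350.8 in ISM1-/- 1 to 3, the last again nearest to WT. Adipoq was present in every library with 433 to 559 counts in WT and 82 to 254 in the others. The 12 cardiomyocyte markers summed to 1720 CPM in WT 1 against 330.9 to 695.5 in the other 5 libraries. All 12 were below 0, and 1 was called lower by edgeR and 0 by DESeq2. At an unadjusted p under 0.05 edgeR gave 11 lower, against 9.30% of all genes. For 4 of the 12 the groups did not overlap, all lower, against 12.3% of all genes. None of 12 alveolar type 2, 12 endothelial or 12 macrophage markers was called by edgeR (1, 3 and 2 at an unadjusted p under 0.05, and 0, 0 and 0 by DESeq2), against 1 of 12 alveolar type 1 (Rtkn2, higher), 4 of 12 fibroblast (Col1a1, Dcn, Pi16 and Lum, lower), 1 of 7 brown adipocyte (Cox8b, lower) and 2 of 5 squamous markers (Krt15 and Sprr1a, lower). Aldh1a7, Inmt and Car4 each stand in a pair of lists. The part of any of these cell types in the enzyme values was not tested.

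The genes that act with these enzymes were read from 7 further lists. Beside the counts called in them, edgeR called 3.34% of all genes tested lower and 1.38% higher. Of 12 tested electron donors of P450s, 1 was called, the reductase Por, with 389.7 ± 19.3 CPM in WT and 325.9 ± 12.1 (SD, n = 3) in the libraries labelled ISM1-/- (log2 fold change -0.26, adjusted p = 0.0578, edgeR). Of 28 other phase I enzymes 6 were called lower and 2 higher. Cbr2, the lung carbonyl reductase, fell from 2844 ± 59.9 to 2242 ± 156.1 CPM (adjusted p = 0.0342), and the epoxide hydrolase Ephx2 fell by 0.87 on the log2 scale (adjusted p = 0.0539), while the microsomal epoxide hydrolase Ephx1 rose by 0.21 (adjusted p = 0.0925). The others called were Aldh3a1 (-0.55), Aox1 (-0.32), Aox3 (-0.27) and Pon1 (-0.51), all lower, and Ces2e (0.56), higher.

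Of 17 other phase II enzymes, Mgst3 and Ptges were called lower at -0.28 and -0.42. None of 14 genes of cofactor synthesis was called by edgeR, where the smallest adjusted p was 0.212 and 1 had an unadjusted p under 0.05. DESeq2 called 0 of them. Of 16 transporters Abcb1a, the drug efflux pump, was called higher (0.26), and Abcc3 and Slc47a1 lower (-0.36 and -0.98).

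Against this, the Cyp1 family, which the choice of genes leaves out, held the strongest rise among these lists. Cyp1a1, the classical target of the aryl hydrocarbon receptor, had 264, 187 and 330 counts in WT and 725, 817 and 788 in the libraries labelled ISM1-/- (log2 fold change 1.55 ± 0.19 SE, adjusted p = 0.0102, edgeR), and the groups lay far apart. The other Cyp1 gene tested, Cyp1b1, went the other way at -0.30, without overlap, and was not called (adjusted p = 0.199, edgeR). The receptor gene Ahr was at 0.11, and Ahrr and Tiparp, listed with it, were at -0.61 and -0.13, none of them called. The part of the receptor in these values was not tested.

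Of 20 regulators 2 were called higher, the clock output factors Dbp (0.69, adjusted p = 0.0366) and Tef (0.44, adjusted p = 0.0163), which bind the D-box, and 2 lower, the fatty acid receptor Ppara (-0.59, adjusted p = 0.0731) and the CCAAT/enhancer-binding factor Cebpb (-0.47, adjusted p = 0.0967), by edgeR. Of the 3 genes whose promoters held a D-box, Ces1b was at -0.29, Ces1e at -0.18 and Ces1g at 0.18, and none was called.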

How the data were processed

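Libraries of perfused whole lung from 3 WT and 3 ISM1-/- mice were strand-specific and poly-A selected. The authors aligned the reads with STAR to GRCm38/mm10 and deposited read counts per gene and FPKM. The counting program and its strand setting are not given in the sources used here. The deposited counts were tested and the deposited FPKM served only to compare levels between genes. The deposited tables also give gene coordinates and lengths.

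Counts were fitted with edgeR 4.0.16 (R 4.3.3): TMM scaling, a minimum of 0.5 CPM in any 1 library (18689 genes), quasi-likelihood test, Benjamini-Hochberg adjustment over all genes, called at an adjusted p under 0.1. SE values were derived from that fit, as the absolute log2 fold change over the square root of the F statistic of its test. The fit was tested on simulated data with known changes, which were larger than the changes of most enzyme genes called here. That test therefore does not cover falls as small as these. DESeq2 1.42.0, other scalings and filters, a replicate block and leaving out libraries were alternatives. Groups of 3 libraries are from separate mice by their labels, and an exact permutation test of 3 against 3 cannot go below 0.1. Depth limits genes of few counts.

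Named genes were those called, the 3 highest by FPKM in each family, the largest difference without overlap in each family, genes at the count minimum, Ism1, called genes of the lists, and defining markers. Markers of the ciliated and cardiomyocyte lists, and those of the adipocyte list other than Adipoq, were counted and not named. The genes, the lists and these rules were chosen with earlier results of these data known. The values of 1 gene of the set are not reported here.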

Additional observations from a re-analysis of the deposited data

How the results depend on the processing

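Of the 7 calls, DESeq2 kept 7, RLE size factors kept 6 (without Gstm2) and upper-quartile scaling kept 7. The count of enzyme genes called was 8 when 0.5 CPM was required in at least 3 libraries or with robust empirical Bayes, and 11 with no filter on low counts, all lower. In these fits 3.62%, 3.48% and 3.34% of all genes were called lower, beside 3.34% in the main fit. At an adjusted p under 0.05 the count was 2, both lower (Cyp2f2 and Cyp2s1). Leaving out 1 library gave 1 (without WT 2) to 14 (without ISM1-/- 3) calls, 1 to 13 lower, 0 to 1 higher (Cyp4f18) and 0 to 1 with a 2-fold minimum (Cyp2e1), while 0.618% to 4.84% of all genes were called lower in the same fits. Without WT 3, ISM1-/- 1 or ISM1-/- 2 there were 2 calls, Cyp2f2 and Cyp2s1. Leaving out both WT 1 and ISM1-/- 3, chosen after seeing the data, gave 17 calls, 16 lower, 1 higher and 1 with a 2-fold minimum, beside 7.23% of all genes called lower, and family medians of -0.10 for Cyp4, -0.23 for Gst and -0.49 for Sult1. Over single libraries left out, the medians ranged from -0.116 to -0.027 for Cyp4, -0.228 to -0.151 for Gst, -0.173 to -0.090 for Cyp2, -0.240 to -0.014 for Ces1, -0.107 to 0.093 for Fmo, -0.390 to 0.011 for Sult1 and -0.017 to 0.166 for Ugt1a, so those of Fmo, Sult1 and Ugt1a took both signs. Over the fits that left out 1 library the log2 fold change took both signs in 18 of 58 genes, 0 of them called with all libraries. Among the named genes it reversed for Cyp2b10 (-0.015) and Sult1a1 (-0.29, adjusted p = 0.0912 by edgeR) without both WT 1 and ISM1-/- 3, and with single libraries left out it ranged from -0.433 to 0.075 for Cyp2a5, -0.008 to 0.113 for Cyp4f16, -0.107 to 0.021 for Fmo1, -0.122 to 0.028 for Ces1d, -0.017 to 0.258 for Ugt1a6a and -0.198 to 0.258 for Sult1a1. The cause of these shifts was not tested.

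The replicate numbers did not pair the libraries: the deviations of same-numbered libraries correlated at -0.040, 0.031 and 0.001. With the replicate number as a block 10 enzyme genes were called, all lower, beside 3.78% of all genes called lower. Of the 10, 6 were among the 7, and Gstt3 lost its call. With 3 libraries per genotype, genes of few counts such as Gstm3 and Ugt1a6b have standard errors of 0.27 to 0.40 on the log2 scale, and Gstm3 was not called even at -1.20 (adjusted p = 0.171, edgeR).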
